A study of Caenorhabditis elegans with 2 samples.

Results

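The 6 vitellogenin genes of Caenorhabditis elegans, vit-1 to vit-6, and rme-2, the gene of the oocyte yolk receptor, were examined in a ChIP-seq experiment on the RNA-binding protein RBM-26. They were chosen by name, with earlier results of these data known, so their counts beside the background are a description. They are 7 of the 19985 protein-coding genes of the annotation, all of which were read by the same rule. A peak was given to a gene where its interval touched the gene or its summit lay within 1000 bp of it. By its summit it was then placed upstream of the start, in the gene body or past the gene end.

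Both libraries came from strain OP801, in which the integrated fosmid transgene wgIs801 expresses B0336.3 (rbm-26) tagged with TY1, EGFP and 3xFLAG and carries unc-119(+) in an unc-119 (tm4063) background. The worms were whole young adults of 66 hours, synchronised by bleaching and starvation as L1 larvae, and an antibody against GFP was used on sonicated chromatin of 200 to 800 bp. There were 2 biological replicates of 1 group, with no second condition, so every comparison is between genes, between positions or between replicates. Both replicates share the one transgenic strain. Tissues were not separated, so a peak at a yolk gene cannot be placed in the intestine, the germ line or any other tissue, and whether the chromosomal copy of rbm-26 is intact in this strain is not given in the sources used here. ChIP-seq reads DNA and reports where the tagged protein lies on chromatin, not how much RNA a gene makes.

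Vitellogenins are the yolk protein precursors, large lipid-carrying proteins related to apolipoprotein B. In the adult hermaphrodite the intestine transcribes their genes at very high levels, secretes the proteins into the body cavity, and the growing oocytes take them up by endocytosis through RME-2, a member of the LDL receptor family. vit-1 to vit-5 encode the large yolk polypeptides and vit-6 encodes a precursor that is cut into the smaller ones. Human RBM26 and RBM27, the counterparts of RBM-26, are linked to the decay of polyadenylated RNA in the nucleus.

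The deposited lists were 4 thresholded and 4 ranked. The conservative series list had 3045 rows with a median signal of 135, the wider list 3344 rows with a median of 129.8, that of replicate 1 held 2386 rows with a median of 81.5, and that of replicate 2 held 1974 with a median of 87.5. The ranked lists, which go far below the thresholds, held 36577 to 40147 rows. Signal is the authors' own value for a peak, and it was compared only within a list. No source used here gives a read number, and the depth of both libraries is therefore unknown. Many rows had 1 fixed width: 620 bp in 47.5% of the conservative and 50.5% of the wider rows, 580 bp in 63.0% of replicate 1 and 650 bp in 49.6% of replicate 2.

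The promoters of the vit genes are shown because they hold the elements through which these genes are known to be switched on, VPE1 (TGTCAAT) and VPE2 (CTGATAA), the latter a binding site of GATA factors of the intestine. The 200 bases before each annotated start are given on the strand of the gene (Ensembl 115 gene starts, RefSeq genome sequence, build ce11). Capitals mark VPE1, VPE2 and the GATA core TGATAA on either strand; the core is contained in every VPE2.
vit-1, chrX:7727689-7727888, plus strand: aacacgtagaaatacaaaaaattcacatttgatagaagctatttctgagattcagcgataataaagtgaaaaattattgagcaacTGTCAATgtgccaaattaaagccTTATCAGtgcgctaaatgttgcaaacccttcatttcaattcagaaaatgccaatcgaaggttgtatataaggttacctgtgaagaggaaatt
vit-2, chrX:5100842-5101041, plus strand: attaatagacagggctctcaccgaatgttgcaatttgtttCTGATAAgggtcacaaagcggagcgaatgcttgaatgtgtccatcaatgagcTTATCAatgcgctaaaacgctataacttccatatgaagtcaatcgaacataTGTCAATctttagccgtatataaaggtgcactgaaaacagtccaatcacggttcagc
vit-3, chrX:3572550-3572749, minus strand: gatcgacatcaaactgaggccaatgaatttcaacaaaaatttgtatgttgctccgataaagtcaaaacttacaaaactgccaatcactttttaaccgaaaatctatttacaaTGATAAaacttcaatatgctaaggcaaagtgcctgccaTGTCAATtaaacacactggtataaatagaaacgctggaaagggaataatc
vit-4, chrX:3563966-3564165, minus strand: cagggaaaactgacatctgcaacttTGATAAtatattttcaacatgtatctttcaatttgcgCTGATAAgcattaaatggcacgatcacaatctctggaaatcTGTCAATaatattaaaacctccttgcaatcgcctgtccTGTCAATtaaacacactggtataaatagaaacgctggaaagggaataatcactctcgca
vit-5, chrX:3403271-3403470, plus strand: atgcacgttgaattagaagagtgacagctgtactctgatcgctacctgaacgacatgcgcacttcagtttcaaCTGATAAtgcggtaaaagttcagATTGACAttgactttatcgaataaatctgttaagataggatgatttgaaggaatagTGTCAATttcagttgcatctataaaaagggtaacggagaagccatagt
vit-6, chrIV:8260957-8261156, plus strand: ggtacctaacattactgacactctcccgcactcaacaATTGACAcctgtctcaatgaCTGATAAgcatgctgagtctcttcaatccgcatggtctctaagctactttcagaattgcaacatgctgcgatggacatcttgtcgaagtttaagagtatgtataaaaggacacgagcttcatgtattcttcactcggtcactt
rme-2, chrIV:5469826-5470025, plus strand: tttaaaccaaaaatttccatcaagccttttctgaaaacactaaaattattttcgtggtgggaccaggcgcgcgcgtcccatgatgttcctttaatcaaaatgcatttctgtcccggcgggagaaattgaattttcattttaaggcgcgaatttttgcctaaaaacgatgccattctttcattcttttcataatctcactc
Between 250 bp before and 50 bp after the start, VPE1 was found at 6 of 6 vit genes and in 5.77% of 19984 protein-coding genes. VPE2 was found at 5 vit genes, all except vit-3, and in 8.15% of genes. The GATA core was found at all 6 vit genes and in 30.2% of genes. The window of rme-2 held none of these letters. VPE1 and VPE2 were looked up because they are known from vit promoters, so their counts at the vit genes are a description. VPE1 lay 57 bp before the start of vit-2, 50 bp before that of vit-3, and 97 and 59 bp before that of vit-4. The printed promoters of vit-3 and vit-4 share an identical run of 50 bases that begins with VPE1, whereas any other pair of the 7 shared at most 11 bases in a row.

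Every vit gene had a peak summit within 1000 bp past its end in the wider list, at 109 bp in vit-6 to 919 bp in vit-4, whereas peaks near a vit start passed a threshold only at vit-2 and vit-6. In the conservative list 4 of the 7 genes had a peak, namely vit-2, vit-5, vit-6 and rme-2, where 14.6% of all protein-coding genes did. Among the 4038 genes of 3000 to 6000 bp, the length range of all 7, the share was 17.5%. The wider list held a peak at 7 of 7 genes against a background of 15.7%. Replicate 1 held one at the same 4 genes as the conservative list, with a background of 11.7%, and replicate 2 at all 7, with a background of 10.3%. In the ranked lists all 7 genes had rows, but so did 46.6% of genes in the between-replicate list, 47.6% in the pooled list, 51.6% in that of replicate 1 and 48.8% in that of replicate 2, so presence there separates few genes.

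**Figure D1:**
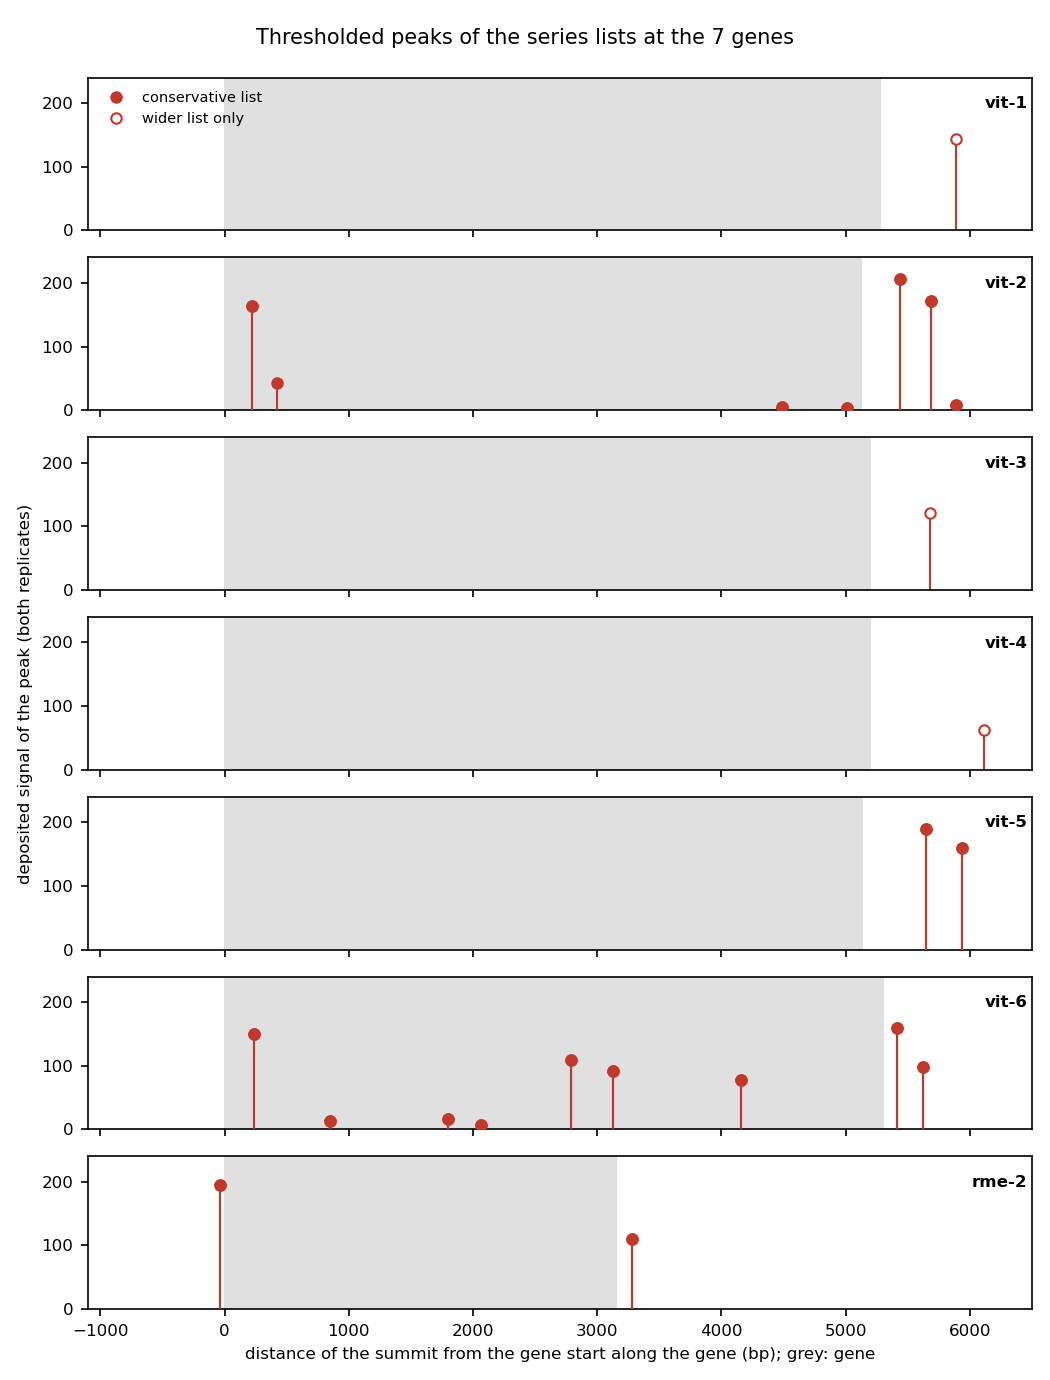
Peaks of the series lists along each of the 7 genes. The horizontal axis is the distance of the summit from the gene start in bp along the direction of the gene, with the gene in grey, and the vertical axis is the deposited signal. Filled points are rows of the conservative list and open points are rows found only in the wider list. vit-1, vit-3 and vit-4 carry a single open point each, past the gene end, while vit-6 carries points from its start to beyond its end.

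By position of the summit, the gene end held a peak at more of the vit genes than the start or the body did. With the midpoint of each interval in place of its summit, the wide gene-end intervals of vit-2 and vit-6 count as gene body, and member rows past the end fell from 8 to 3 in the conservative list, leaving vit-5 and rme-2 there. In the wider list 7 of 7 genes, including 6 of 6 vit genes, had a summit past the gene end, against 6.93% of all genes. In the conservative list 4 of 7 did, against 6.35%. Replicate 2 placed a summit past the end of all 6 vit genes but not of rme-2, where 4.5% of genes had one, and replicate 1 did so for vit-2, vit-5 and vit-6, where 4.64% had one. Gene-body summits were found at vit-2 and vit-6 in the conservative list (5.55% of genes), the wider list (6.02%) and replicate 2 (3.6%), and at vit-2, vit-6 and rme-2 in replicate 1 (4.42%). An upstream summit was found at rme-2 alone of the 7 in the conservative list (6.31%), the wider list (6.86%) and replicate 2 (4.22%), and at none of them in replicate 1 (5.02%).

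Of the larger yolk protein genes, vit-2 (WBGene00006926, chromosome X, 5101042 to 5106169, plus strand) carried the highest signal among the 7 in the series lists and in replicate 1, but not in replicate 2, where vit-6, rme-2, vit-1 and vit-5 were above it. Its highest row in the conservative list had a signal of 206.1, rank 594 of 3045, with the summit 314 bp past the gene end, and a second gene-end row had 172.4. Near the start a row of 163.2, rank 1073, had its summit 220 bp into the gene. Both sites were seen in each replicate. Past the end, the signal was 113.0 in replicate 1 and 87.6 in replicate 2, at 346 and 328 bp. At the start it was 91.8 and 89.0, at 171 and 275 bp into the gene, so the order of the end and start sites was the same in replicate 1 as in the series list and the values were nearly level in replicate 2. The conservative list also gave vit-2 a row of 43.4 at 422 bp, which the wider list lacks, and rows of 7.59, 4.71 and 3.92, which share 1 wide interval (chrX:5105123-5107169) with the gene-end rows.

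The gene-end peak of vit-2 lies inside another gene. C42D8.9, on the opposite strand, overlaps the last 11 bp of vit-2, and all 3 gene-end summits fell in its coding exons, the highest of them 324 bp from its own end. The peak therefore cannot be assigned to vit-2 rather than to C42D8.9. Its 101 bp had a GC content of 57.4%, the highest of the windows taken at the gene-end summits.

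vit-1 (WBGene00006925, chromosome X, 7727889 to 7733168, plus strand), whose coding sequence was 94.0% identical to that of vit-2, differed from it. It had no row in the conservative list or in replicate 1. The wider list gave 1 row with a signal of 144.1, rank 1343 of 3344, with its summit 606 bp past the end, and replicate 2 gave 107.1 at 568 bp past the end. In the longer ranked list of replicate 1 no row lay past the end of vit-1 at all, and its highest row there was a gene-body row of 29.9. The peak thus rests on replicate 2. The summits fell within set-12, a gene of a SET-domain protein on the opposite strand whose end is 165 bp away, in an intron in the wider list and in a coding exon in replicate 2. Near the start of vit-1 the ranked lists held only 7.36 in replicate 1 and 23.5 in replicate 2, far below the values at vit-2.

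vit-3 (WBGene00006927, chromosome X, 3567355 to 3572549) and vit-4 (WBGene00006928, chromosome X, 3558769 to 3563965) are neighbours on the minus strand with 3389 bp between them, and vit-5 (WBGene00006929, chromosome X, 3403471 to 3408603, plus strand) lies elsewhere on the same chromosome. At vit-5 the conservative list held rows of 189.8, rank 744, and 159.8, rank 1117, both past the gene end, the higher one by 513 bp. The highest rows of replicates 1 and 2 were 106.6 and 104.9, at 649 and 450 bp past the end. Each held a second gene-end row, of 86.0 at 861 bp in replicate 1 and of 59.1 at 660 bp in replicate 2. The summits fell in coding exons of unc-78, a gene of an actin-disassembly factor on the opposite strand whose end is 70 bp from that of vit-5.

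vit-3 and vit-4 had a peak only in the wider list and in replicate 2. At vit-3 the signal was 120.6 in the wider list, rank 1920, with the summit 482 bp past the end, and 88.6 in replicate 2 at 480 bp. Replicate 1 held at most a ranked row of 45.0 there, at the 89.7th percentile of its ranked list by signal. That row is not in its thresholded list. The threshold is not a cut-off of signal, since the thresholded list of replicate 1 holds a row of 5.33 at vit-2. vit-4 had the lowest top value of the 7 in the wider list, 62.02, rank 3105, 919 bp past the end. Its interval had exactly the commonest width of that list. In replicate 2 the rows of vit-1, vit-3 and vit-4 and the start rows of vit-2 and rme-2 also had the commonest width. In replicate 1 the start rows of vit-6 and rme-2 did, and in the conservative list the vit-2 row of 43.4. In the ranked series lists a higher row of 74.0 lay 612 bp past the end of vit-4, and the wider list lacks it. Replicate 2 gave vit-4 60.6 at 594 bp past the end, and replicate 1 a ranked row of 29.6 at 941 bp, again not in its thresholded list. The replicate 2 summit lay nearer the row at 612 bp than the wider-list row at 919 bp, though its interval overlaps both. The replicate 1 summit lay nearer the row at 919 bp. Unlike at vit-1, vit-2 and vit-5, these summits lay in no gene, although that of vit-4 in the wider list was 67 bp from the end of rgs-7, which encodes a regulator of G protein signalling.

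**Figure D2:**
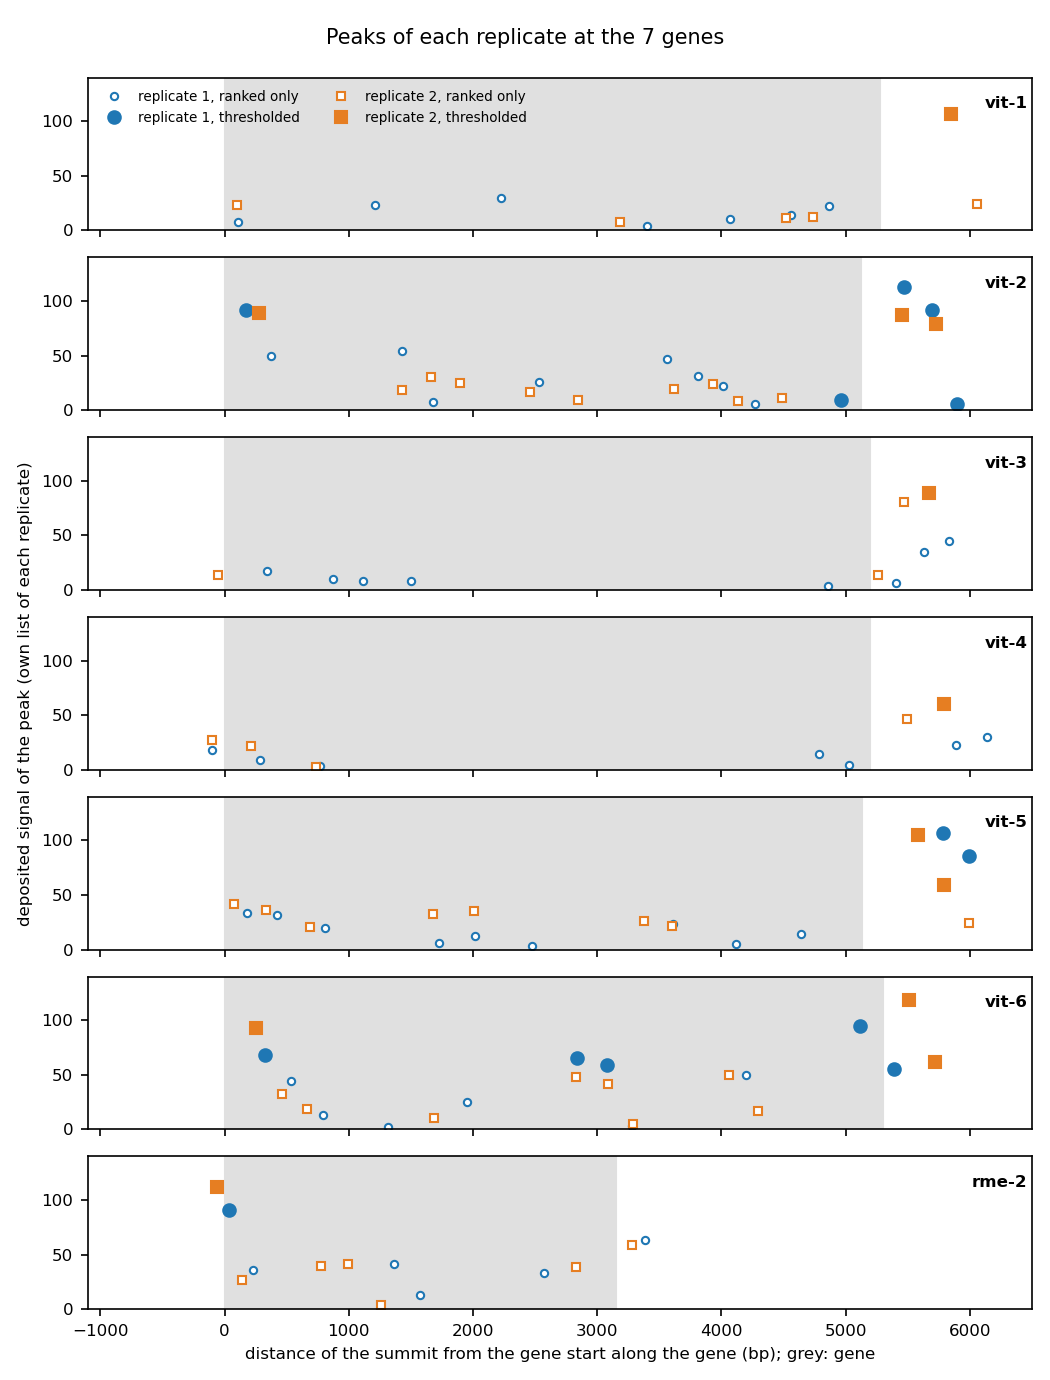
Peaks of each replicate along the 7 genes. The horizontal axis is the distance of the summit from the gene start in bp with the gene in grey, and the vertical axis is the deposited signal within the list of that replicate. Large filled markers are thresholded rows and small open markers are rows of the ranked lists only. Past the ends of vit-1, vit-3 and vit-4 the filled markers are all of replicate 2, at 107.1, 88.6 and 60.6.

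vit-6 (WBGene00006930, chromosome IV, 8261157 to 8266459, plus strand) had the most rows of the 7 in the conservative and wider lists, while in each replicate it had as many thresholded rows as vit-2. Of its 9 rows in the conservative list, the highest had a signal of 159.5, rank 1121, with its summit 109 bp past the end. The next had 150.2, rank 1252, at 237 bp into the gene, and others of 109.6, 92.2 and 77.1 lay at 2790, 3123 and 4155 bp. A second gene-end row had 98.6 at 317 bp past the end, and gene-body rows of 16.9, 13.1 and 6.90 completed the set. The intervals chrIV:8261182-8261665, chrIV:8261767-8264623 and chrIV:8264519-8266972 covered 97.6% of the gene, and only 2 of the 4038 genes of 3000 to 6000 bp, vit-6 included, were covered as much or more. The replicates differed in this. In replicate 1 rows covered 34.9% of vit-6, with mid-gene summits of 65.8 and 58.9 at 2833 and 3080 bp, whereas in replicate 2 no thresholded mid-gene row was found and coverage was 3.87%, which 255 of the 4038 genes reached.

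At its start and its end vit-6 passed the threshold in both replicates. The start site had 68.5 in replicate 1 and 92.7 in replicate 2, at 326 and 250 bp into the gene. The end site had 118.8 in replicate 2, 210 bp past the end. In replicate 1 the highest row near the end, 94.3, had its summit 184 bp before the end, and a row of 55.4 lay 89 bp past it. The higher gene-end summit of the conservative list was intergenic, 76 bp from the end of K07H8.8 on the opposite strand, and the other fell in a coding exon of that gene. The highest of replicate 2 fell in the 3′ UTR of K07H8.8.

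Wide coverage was also seen at vit-2. Its intervals covered 34.7% of the gene in the conservative list, 24.0% in replicate 1 and 26.1% in replicate 2, and 14, 19 and 8 genes of that length range were covered as much or more in these lists, vit-2 included. vit-5 was covered for 2.82% of its length in the conservative list and rme-2 for 4.38%. No interval of the 4 thresholded lists reached into vit-1, vit-3 or vit-4.

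rme-2 (WBGene00004374, chromosome IV, 5470026 to 5473174, plus strand) encodes the receptor through which oocytes take up yolk. In the conservative and wider lists it was the only member whose highest peak was at the start. The conservative list placed a row of 195.6, rank 693 of 3045, at chrIV:5469830-5470097, with the summit 36 bp before the start, inside the promoter printed above. Replicate 1 had 91.1 at 33 bp into the gene and replicate 2 had 112.1 at 62 bp before it, so the 2 summits lie on either side of the annotated start. A second row of 109.6, rank 2223, lay 128 bp past the end. In the replicates the gene-end site had 63.7 and 58.4, and neither passed the threshold of its own list.

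Summits within 500 bp of the start were found at vit-2, vit-6 and rme-2 in the conservative list, and in 6.28% of all genes. These same 3 genes had a gene-end summit as well, a combination shown by 305 genes, or 1.53%. That count covers genes of every length, and in a gene shorter than 500 bp a single summit past the end can meet both conditions. At the other vit genes the ranked lists held weaker rows near the start. Between replicates the highest such row was 72.1 at vit-5, 39 bp into the gene, 49.5 at vit-4, 103 bp before its start, and 26.4 at vit-1, 107 bp into the gene. vit-3 had 23.3 there, 63 bp before its start. All were below the conservative median of 135, and the 163.2 of vit-2 and 150.2 of vit-6 were above it.

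The 4 members with the highest gene-end rows differ in the sequence under the summit, which is shown to let the sites be compared with each other and with the promoters above. The 101 bases around the highest gene-end summit of the wider list are given on the strand of the member (build ce11), with the summit base in capitals.
vit-1, chrX:7733724-7733824, plus strand: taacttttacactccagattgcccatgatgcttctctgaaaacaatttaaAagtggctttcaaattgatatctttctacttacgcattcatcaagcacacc
vit-2, chrX:5106433-5106533, plus strand: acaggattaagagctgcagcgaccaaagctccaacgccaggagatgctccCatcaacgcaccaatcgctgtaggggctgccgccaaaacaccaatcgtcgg
vit-5, chrX:3409066-3409166, plus strand: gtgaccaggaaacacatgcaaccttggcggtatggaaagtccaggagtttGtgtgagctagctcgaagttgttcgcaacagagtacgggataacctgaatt
vit-6, chrIV:8266518-8266618, plus strand: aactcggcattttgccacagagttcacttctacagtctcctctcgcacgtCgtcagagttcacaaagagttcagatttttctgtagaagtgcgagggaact
The GC content was 35.6% at vit-1, 57.4% at vit-2, 48.5% at vit-5 and 46.5% at vit-6. At vit-3, vit-4 and rme-2 it was 35.6%, 33.7% and 32.7%. The summits of vit-2 and vit-5 lie in coding exons of C42D8.9 and unc-78, that of vit-1 in an intron of set-12, and those of the other members in no gene. The part of base composition in the signals was not tested.

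The gene-end summits of the vit genes lay at least 314 bp past the annotated end in the wider list, except at vit-6. Over the 1384 genes with a gene-end summit in the wider list, the highest one was a median of 206.5 bp past the end, with quartiles of 122.75 and 393 bp. For the 7 genes the median was 482 bp, from 109 bp at vit-6 to 919 bp at vit-4. The highest gene-end row of vit-4 in the ranked series lists, which the wider list lacks, lay at 612 bp. In replicate 2 the 6 vit genes had a median of 465 bp against 183 bp over 899 genes, and in replicate 1 the 3 called vit genes had 346 bp against 220 bp over 928 genes. In the conservative list the 4 genes had a median of 221 bp, close to the 203 bp over 1269 genes. These values are descriptions and no test was made.

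**Figure D3:**
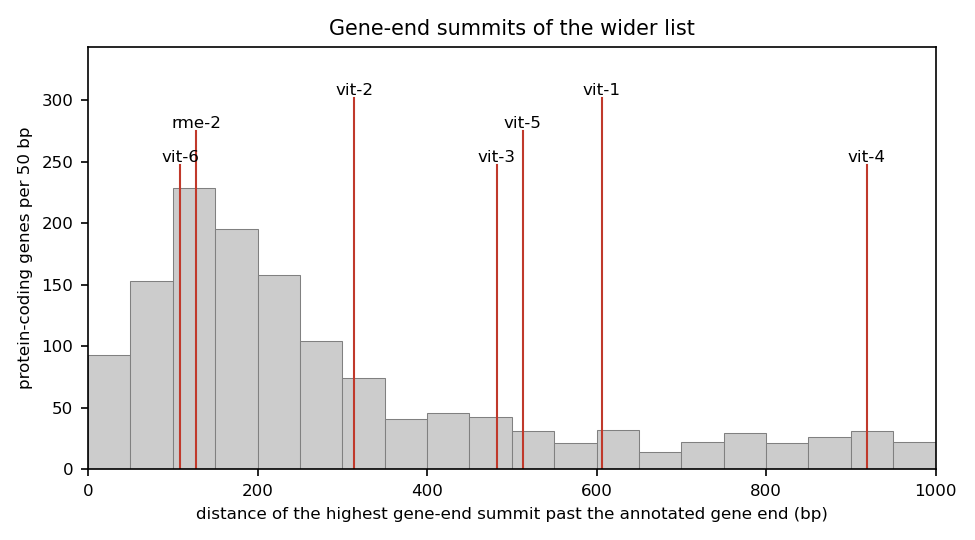
Distance of the highest gene-end summit past the annotated gene end in the wider list. Bars count protein-coding genes per 50 bp, out of 1384 genes with such a summit, and red lines mark the 7 members. vit-6 and rme-2, at 109 and 128 bp, lie near the peak of the distribution, and vit-4 at 919 bp lies at its far edge.

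Another gene ends opposite to most of these genes. Of the 7, 6 have a convergent neighbour whose end lies within 1000 bp of their own, all except vit-3, as do 7045 protein-coding genes in all. Among those 7045 genes a gene-end summit was found in 7.47% in the conservative list, 8.25% in the wider list, 5.32% in replicate 1 and 5.49% in replicate 2. Of the 6 members, 4, 6, 3 and 5 had one in these lists. The shares over convergent genes are slightly above those over all genes. Which gene of a convergent pair a summit belongs to cannot be told apart from these lists.

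Several of the vit genes are close copies of each other. Coding sequences of vit-3 and vit-4 were 99.0% identical, and those of vit-5 were 97.7% and 97.8% identical to them. vit-1 and vit-2 were 71.4% to 72.3% identical to these 3, and vit-6 was 64.4% to 66.2% identical to the other vit genes. Of the 50-base stretches in each gene, 25.9% occur once in the genome for vit-3, 21.4% for vit-4 and 50.9% for vit-5. The share was 87.2% for vit-1 and 86.9% for vit-2, and 100% for vit-6 and rme-2.

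In the first 500 bp, 22.2% of 50-base stretches were unique in vit-3 and in vit-4, 91.6% in vit-5, and 100% in vit-1, vit-2, vit-6 and rme-2. The 1000 bp past each gene end were 100% unique for all 7. All the gene-end summits lie there, though the intervals of vit-2, vit-5, vit-6 and rme-2 reach back into the gene. The absence of thresholded start and body peaks at vit-3 and vit-4 coincides with repeated sequence inside the gene, but not upstream of it. In their 1000 bp upstream 99.9% and 98.9% of 50-base stretches were unique, and no thresholded summit lay there. vit-1 and vit-5 also had no thresholded start peak. Over 50 bases their first 500 bp were 100% and 91.6% unique, and over 36 bases 97.2% and 80.9%. How the authors treated reads that match several places is not given in the sources used here, and the part of repeated sequence in these results was not tested.

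**Figure D4:**
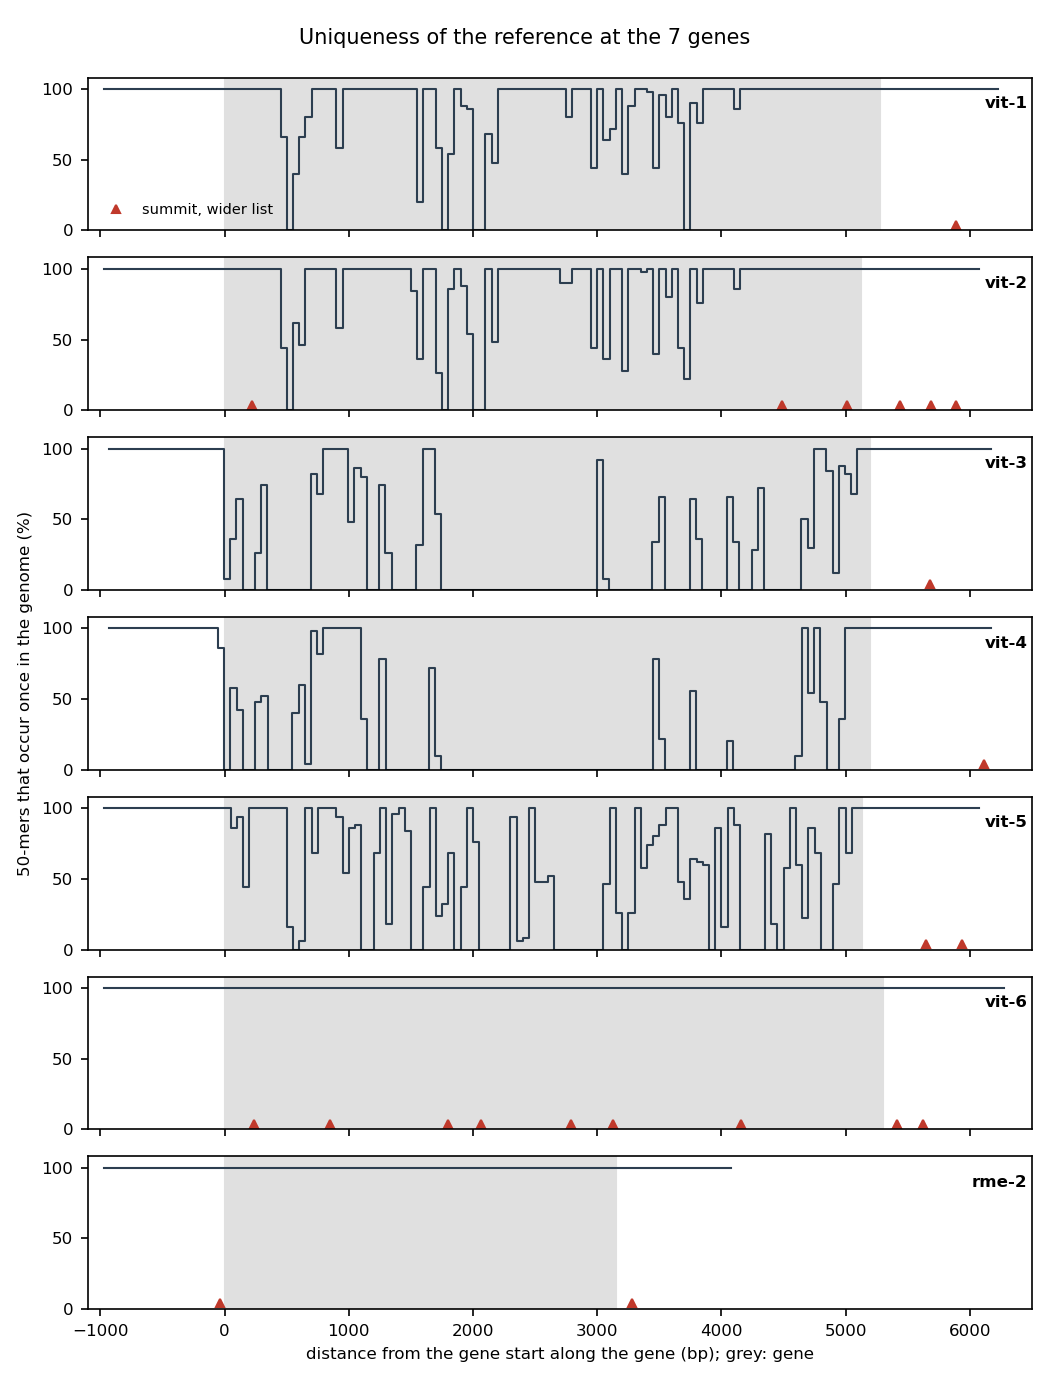
Share of 50-base stretches that occur once in the genome along each of the 7 genes and their 1000 bp flanks. The horizontal axis is the distance from the gene start in bp with the gene in grey, the vertical axis is the percentage of unique stretches, and triangles mark summits of the wider list. The lines of vit-3 and vit-4 fall to low values within the gene and return to 100% past its end, where their triangles stand.

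The genes whose pattern was most like that of a member were found from 3 values: the percentile of the highest row of the gene in the ranked list of each of the 2 replicates, and the distance from the start of its highest summit in the conservative list. These can be different sites, as at vit-2, where the highest row of replicate 2 lies near the start and the conservative summit past the end. The measure is the largest of the 3 differences, with percentiles divided by 100 and distance in kb. The percentiles of these members and of the genes named below lay within 96.2 to 99.9. Where a summit lies past the gene end, its distance from the start includes the gene length. A match can therefore reflect similar length. For vit-2 the closest were pat-4 (0.012), hira-1 (0.018) and vit-6 (0.03). For vit-6 they were hira-1 (0.0195), vit-2 (0.03) and pat-4 (0.042). For vit-5 they were ocrl-1 (0.007), mut-16 (0.0224) and pxn-1 (0.031), and for rme-2 they were snpc-3.4 (0.005), tub-2 (0.00508) and enpl-1 (0.00732).

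Genes of the yolk pathway were counted by the same rule, beside the background of 14.6% in the conservative list. Of 11 regulators of vit transcription, 6 had a peak. These were lin-29, a zinc-finger factor of developmental timing, with 325.8, the zinc-finger factor gene pqm-1 with 311.5, the homeodomain gene ceh-60 with 276.6, the FOXO gene daf-16 with 208.2, mab-3, which represses vit genes in males, with 183.2, and the homeodomain gene unc-62 with 114.7. Of these summits the 3 of pqm-1, mab-3 and daf-16 were past the gene end, and those of lin-29 and ceh-60 lay in the gene body at -148 and -369 bp from its end. That of unc-62 lay in the gene body, 1853 bp from the start. elt-2 and elt-7, the intestinal GATA factors, had none. Several of these genes are long, with 26206 bp for daf-16 and 17702 bp for lin-29, and a longer gene has more room for a peak.

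In the uptake step that follows RME-2, 6 of 11 genes of receptor-mediated endocytosis had a peak. These were the endosomal GTPase genes rab-5 with 267.7, rab-11.1 with 171.7 and rab-7 with 131.8, the clathrin adaptor gene dpy-23 with 200.2, rme-4 with 135.9 and the dynamin gene dyn-1 with 128.1. The summits of rab-5, rab-7, dpy-23 and dyn-1 were upstream of the start, as was that of rme-2 itself, and those of rab-11.1 and rme-4 lay in the gene body, 1222 and 2030 bp from the start. The row of rab-7 was also within reach of mex-1, an oocyte gene, and counts for both. Of the 4 receptor-related genes, lrp-2 had 169.8 past its end and egg-1, which encodes an LDL receptor-repeat protein of the oocyte surface, had 187.5 at 139 bp before its start.

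For secretion and for the tissues at either end of the pathway, sar-1 of vesicle export was the only one of 3 secretion genes with a peak, at 178.1. Of 6 intestinal genes 1 had a peak, asp-1 with 137.8, and of 10 oocyte genes 8 did. The oocyte genes were pos-1 with 313.2, puf-11 with 283.3, cbd-1 with 211.3, mex-1 with 207.6, puf-5 with 174.8, oma-2 with 137.0, oma-1 with 128.2 and lin-41 with 89.7. The numbers with a peak in replicates 1 and 2 were 6 and 4 for the regulators, 6 and 4 for endocytosis, 6 and 7 for oocyte genes and 2 in each for intestinal genes, beside 11.7% and 10.3% of all genes. No list was tested as a set, and the lists were chosen with earlier results of these data known.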

How the data were processed

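ChIP-seq peaks were deposited by the authors on build ce11, per the labels, as thresholded and ranked lists for the series and for each of 2 replicates. Aligner, peak caller, read depth and the treatment of multiply matching reads were not given in the sources used here. A control experiment named in the labels was not analysed here. Column 7, the deposited signal of a peak, was used within a list only, and the −log10 global IDR (irreproducible discovery rate) deposited by the authors was at least 2.00006 in the conservative list. All 3045 conservative rows are in the ranked list called between-replicate and all 3344 wider rows in the one called pooled. Only peak lists were used, so no SD or test of a condition applies.

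Summits (column 2 plus column 10) were placed against Ensembl 115 gene records. A gene record spans from its first to its last annotated base, and the start may be a trans-splice site. Interval ends did not exceed chromosome lengths of the reference. Uniqueness was counted over 36, 50 and 100 bases, motifs on both strands, and coding identity from global alignments. Python 3.11.15, numpy 2.4.6, pandas 2.3.3, Biopython 1.88 and matplotlib 3.10.9 were used. The assignment was tested on simulated data, with 200 of 200 peaks recovered. All 7 members are named with every conservative row, and with selected rows of the other lists. Of the pathway lists, genes with a conservative peak are named. For likeness, the 3 closest genes are named. The members and lists were chosen with earlier results of these data known.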

Additional observations from a re-analysis of the deposited data

How the results depend on the processing

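The same 4 genes, vit-2, vit-5, vit-6 and rme-2, had a conservative peak with a window of 500 or 2000 bp, with touching intervals only, with summits only, and with a −log10 global IDR of at least 3, which left 1629 protein-coding genes with a peak in place of 2923. With the 500 rows of highest signal, 0 members and 678 genes had one. With the wider list the count of members was 7. With 1 replicate left out it was 4 to 7, and that of genes 2063 to 2338. Without replicate 1 it was 7, as vit-1, vit-3 and vit-4 passed in replicate 2 alone. With row midpoints in place of summits, 3 in place of 8 member rows lay past the gene end, since wide intervals reach back into the gene. Uniqueness of the gene over 36 bases was 21.1% at vit-3 and 17.6% at vit-4, and over 100 bases 39.3% and 33.1%. Signals of single replicates are on other scales than those of the series lists. No paired analysis was possible because there is 1 group and no test. Unknown depth limits what the lack of thresholded rows at vit-1, vit-3 and vit-4 in replicate 1 can show. That lack does not show that peaks are absent. Past the ends of vit-3 and vit-4 the ranked list of replicate 1 held rows of up to 45.0 and 29.6. It held none past the end of vit-1.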

Other observations

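The letters AATAAA, the common polyadenylation signal, were looked up in the last 40 bp of each gene record after the peak positions had been seen. They were found at vit-1, vit-2, vit-5 and vit-6, at 22, 18, 19 and 20 bp before the gene end, and not at vit-3, vit-4 or rme-2. Of all 19985 protein-coding genes, 47.3% held them. In the conservative list 3 of the 4 genes with the letters and 1 of the 3 without, rme-2, had a gene-end peak, against 6.35% of all genes. In the wider list all 7 had one, with or without the letters, against 6.93%.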
